A study of Mus musculus with 70 samples.

Results

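Here 10 genes of the Notch pathway were followed through the formation of the mouse dorsal cortex: the receptors Notch1, Notch2 and Notch3, the ligands Dll1, Dll3 and Jag1, the glycosyltransferase Mfng, and the Hes family members Hes1, Hes5 and Hes6. They were taken by symbol from a table of 23078 genes, all 10 were found, and all 10 were among the 15508 genes that reached a mean of at least 1 TPM in a group and were tested. TPM, the unit of these values, is a transcript abundance corrected for transcript length, so levels of different genes can be set side by side. Values are scaled to the same total in each library, so a difference between libraries is relative to all other genes.

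Gene expression was measured by RNA sequencing in fluorescent cells sorted from dissected dorsal cortices of C57Bl/6 mice, wild type apart from the reporter and with no treatment named, on each day from E10.5 to E18.5 and on postnatal day 1 (PN). Neural stem cells (NSC, 33 libraries over 10 stages) were sorted from Hes5::GFP mice, whose Hes5 promoter drives green fluorescent protein. Basal progenitors (BP, 23 libraries over 8 stages from E12.5) and newborn neurons (NBN, 14 libraries over 5 stages from E15.5) came from a Tbr2::GFP line, where the reporter follows Tbr2, the product of Eomes. The 23 groups of cell type and stage held 2 to 4 libraries each. How BP and NBN were separated from each other among Tbr2::GFP cells is not stated in the labels, and NSC differ from the other cells in reporter line too, so line and cell type cannot be told apart. Nothing in the labels says that replicates came from different animals. The p-values therefore cover the spread between these libraries alone, which may be technical. Since the Hes5 promoter marked the NSC, the level of Hes5 between NSC and another cell type checks the sort, and Hes5 was left out of counts of genes in those comparisons.

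Notch receptors are activated by Delta or Jagged ligands on a neighbouring cell. The receptor's intracellular part is then cut free and, with the DNA-binding protein Rbpj, switches on genes such as Hes1 and Hes5, whose products repress proneural genes and keep cortical progenitors undifferentiated. Proneural factors in turn switch on Delta ligands, Dll3 acts mainly inside the cell that makes it and does not activate receptors on neighbours, Fringe enzymes such as Mfng add sugars to Notch that alter which ligands it answers to, and Hes6 opposes Hes1 and favours differentiation.

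Promoter sequence is shown for 3 of the genes: Hes5, the target that marked the NSC, Hes6, the family member found at high levels in all 3 cell types, and Dll1, the ligand that fell with age in BP. Windows of 250 bases before the annotated start were read from RefSeq (GRCm38.p6), which held 8 of the 10 genes. Hes1 and Mfng were not matched. Capitals mark the 6-base core bound by Rbpj, TGGGAA, on either strand, or the E-box CAGCTG, a site of proneural factors that reads the same on both strands. Each sequence runs 5′ to 3′ on the strand of the gene.
Hes5, chr4:154960673-154960922, plus strand: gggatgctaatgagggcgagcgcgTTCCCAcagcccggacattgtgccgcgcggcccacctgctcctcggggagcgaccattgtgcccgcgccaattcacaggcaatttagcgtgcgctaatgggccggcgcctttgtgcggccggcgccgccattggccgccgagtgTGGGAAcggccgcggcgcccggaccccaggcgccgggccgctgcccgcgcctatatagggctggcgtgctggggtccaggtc
Hes6, chr1:91414039-91414288, minus strand: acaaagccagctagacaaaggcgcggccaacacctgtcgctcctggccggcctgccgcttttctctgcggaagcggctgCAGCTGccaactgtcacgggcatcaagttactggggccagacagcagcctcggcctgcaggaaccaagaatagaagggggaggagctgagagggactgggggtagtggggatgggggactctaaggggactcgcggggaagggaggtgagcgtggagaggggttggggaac
Dll1, chr17:15376933-15377182, minus strand: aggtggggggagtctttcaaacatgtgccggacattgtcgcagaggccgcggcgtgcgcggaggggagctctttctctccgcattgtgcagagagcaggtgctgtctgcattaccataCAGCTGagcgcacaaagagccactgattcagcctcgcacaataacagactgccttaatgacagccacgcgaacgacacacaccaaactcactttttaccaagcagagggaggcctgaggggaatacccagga
The Hes5 window held 2 matches to TGGGAA, 1 on each strand, starting 226 and 82 bases before the gene's start, and no match to CAGCTG. The Hes6 window shown held CAGCTG at 171 bases and the Dll1 window shown at 132 bases before the start, and neither held TGGGAA. Both genes had another window, not shown. For Hes6 (chr1:91413223-91413472) it held CAGCTG at 150 bases, and for Dll1 (chr17:15375824-15376073) it held neither string. Of the 8 genes matched, Hes5 was the only one with TGGGAA, and 4 (Hes6, Dll1, Dll3 and Jag1) held CAGCTG in at least 1 window. Among all 32851 RefSeq windows of this length, 21.6% held TGGGAA and 13% held CAGCTG, so both are common strings, and a match describes the letters and not a bound site.

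The markers listed for each cell type were all in the file. The 7 stem cell markers (Sox2, Pax6, Nes, Vim, Slc1a3, Fabp7, Sox9) summed to 1544 to 11630 TPM in NSC libraries, 525.4 to 964.3 in BP and 218.1 to 473.8 in NBN. The 8 neuron markers (Tubb3, Dcx, Mapt, Stmn2, Neurod6, Neurod2, Rbfox3, Snap25) summed to 387.1 to 6183 TPM in NSC, 4052 to 6699 in BP and 6288 to 9552 in NBN. Neuron markers were thus present in the NSC fraction, most of all at E15.5 (mean of 5689 TPM) and E16.5 (4819), against 1932 at E17.5 and 917.7 at PN. The 6 basal progenitor markers, Eomes among them, summed to 332.7 to 1519 TPM in NSC over the 8 stages shared with BP and to 715.8 to 1674 in BP, and the mean sum was higher in NSC than in BP at E13.5 (1192 and 1125), E14.5 (1155 and 808.1) and E17.5 (1270 and 1109). In NBN they summed to 137.9 to 282.5 TPM. Haemoglobin and other erythroid RNA (6 of 6 genes) averaged 5907 TPM in NSC at E10.5 and 3690 at E11.5, and at most 361.3 in any other group, with Hbb-bh1 listed at 0 in every NSC library of E15.5 and E16.5 and Hba-x in every NSC library from E17.5. All 70 libraries are labelled female, but in 40 of them 4 Y-linked transcripts together exceeded Xist. The third PN library of the NSC is titled NSC while its cell type field reads basal progenitor. It is treated as NSC replicate 3, and Hes5 stood at 441.6 TPM in it and at 458.1 and 536.2 in the other PN NSC libraries. Sequencing depth cannot be read from TPM and is unknown. No 2 libraries held identical values.

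The 3 receptors were all highest in NSC and differed in where they dropped. Notch1 (chromosome 2, 26457903 to 26516663, GRCm38, minus strand, ENSMUSG00000026923.9), a receptor of cortical progenitors, fell at each step, from a mean of 108.9 TPM in NSC over the 5 stages shared by all cell types (lowest 39.7, median 123.4, highest 178.1) to 28.2 in BP (20.005, 27.9 and 44.8) and 6.80 in NBN (4.47, 6.49 and 9.92). Notch2 (chromosome 3, 98013527 to 98150361, plus strand) and Notch3 (chromosome 17, 32120820 to 32166852, minus strand) fell once, between NSC and BP, and stood at similar low levels in BP and NBN. Notch2 averaged 39.3 TPM in NSC, 4.51 in BP and 4.51 in NBN over those stages, and Notch3 averaged 20.7, 1.37 and 1.61.

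**Figure D1:**
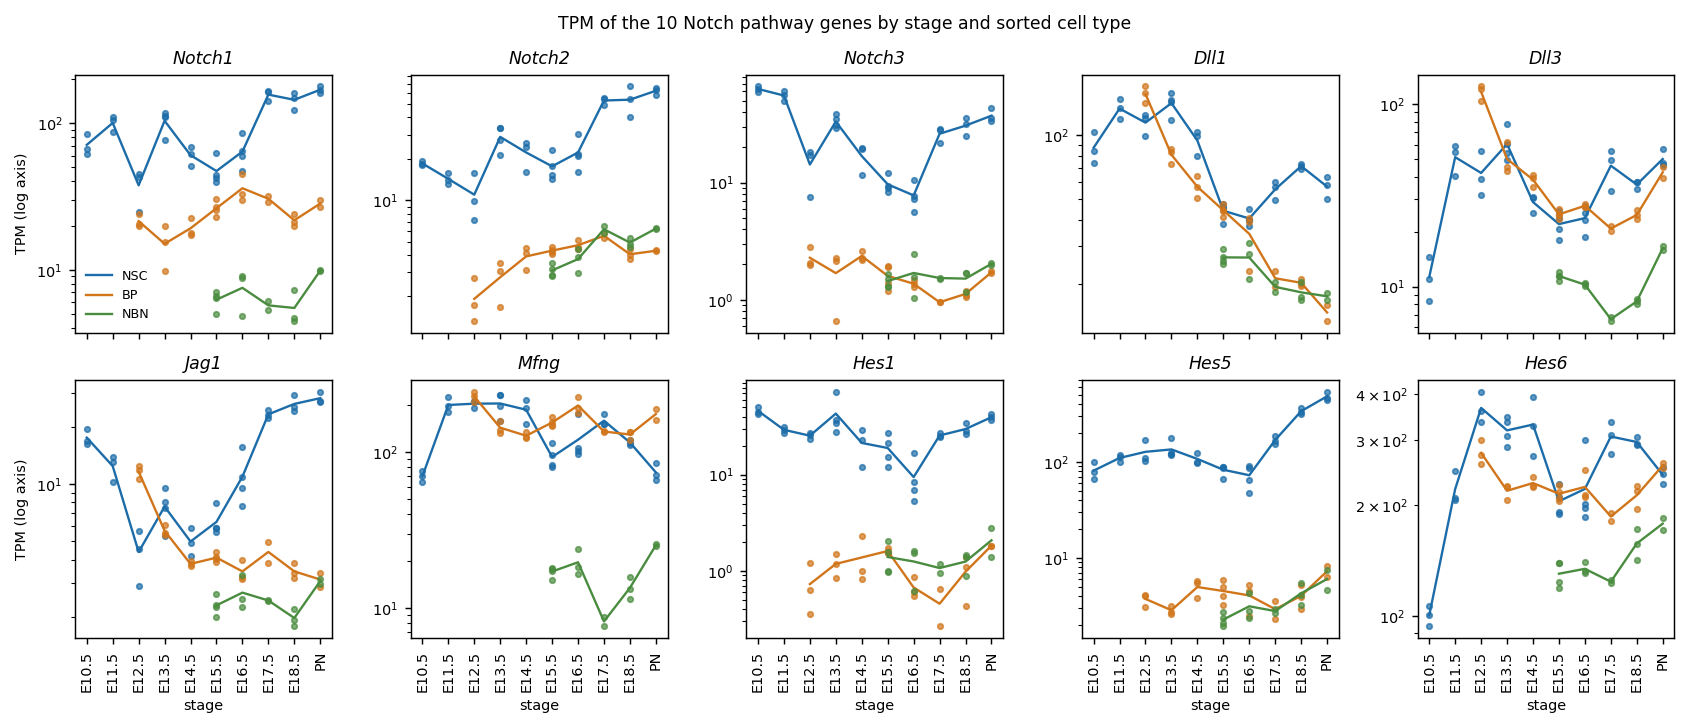
TPM (log axis) of the 10 genes in each of 70 libraries (points) with stage means (lines), for NSC (blue), BP (orange) and NBN (green). The 3 receptors, Hes1 and Hes5 lie higher in NSC than in BP at every shared stage, while Hes6 spans a narrow range and Mfng lies lowest in NBN.

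The first comparison set BP against NSC across E12.5 to PN, the 8 stages that both cell types have. By limma on log2(TPM + 1), with Benjamini-Hochberg adjustment over all genes and a minimum log2 difference of 1, 5 of 9 genes were lower in BP and none was higher, against 6.22% of all genes tested called lower and 1.87% called higher. Of all genes called, 23.1% were higher, against 33.3% after quantile normalization. Notch1 differed by -1.78 ± 0.07 (SE, adjusted p = 2.06e-28), Notch2 by -2.63 ± 0.07 (adjusted p = 8.02e-37) and Notch3 by -2.95 ± 0.08 (adjusted p = 1.10e-37). The median over the 9 genes was -1.11, against -0.02 over all genes tested. For these receptors every BP library lay below every NSC library of its stage at all 8 stages, as it did for Hes1 and Hes5, an arrangement found for 4.14% of all genes. In sorted bulk RNA, fewer cells of a type and less RNA per cell cannot be told apart. The stem cell and neuron markers moved with this contrast, with the sums given above. So did the 6 interneuron and ventral markers (42.5 to 1030 TPM in NSC and 3.97 to 50.3 in BP), the 5 astrocyte markers (71.7 to 3359 and 10.03 to 193.0) and the 5 oligodendrocyte precursor markers (3.15 to 1633 and 0.98 to 19.1). Their part in the differences was not tested.

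Receptor levels at single stages show the size of the gap. At E12.5 Notch2 stood at 15.9, 9.84 and 7.21 TPM in the 3 NSC libraries and at 1.32, 1.73 and 2.70 in the 3 BP libraries. At PN the NSC libraries held 66.1, 63.3 and 58.5 TPM and the 2 BP libraries 4.27 and 4.33. The groups were apart at both ends of the series. Notch3 showed the same order at PN, with 43.1, 35.3 and 33.3 TPM in NSC against 1.75 and 1.68 in BP.

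Among the ligands, Jag1 alone was called in BP against NSC. Jag1 (chromosome 2, 137081456 to 137116644, minus strand), a ligand of the Jagged class, was lower in BP by -1.11 ± 0.06 (limma, adjusted p = 1.76e-24). BP libraries lay apart and below NSC at 6 of 8 stages, E14.5, E15.5 and E16.5 among them, and overlapped at 1. At E12.5 the order was turned, with 12.4, 10.6 and 11.8 TPM in BP above 4.56, 5.69 and 2.92 in NSC. With that stage included, the difference was -0.26 over E12.5 to E16.5, so reaching the minimum rested on the late stages. The call was also lost with a pseudocount of 5 (-0.78) and after quantile normalization (-0.97).

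Dll1 and Dll3 did not reach the minimum difference over all stages, and their order turned with time. Dll1 (chromosome 17, 15367354 to 15376872, minus strand), the ligand that progenitors and young neurons present to their neighbours, differed by -0.79 ± 0.05 (limma, adjusted p = 6.44e-21). Its libraries lay apart and lower in BP at 5 stages, apart and higher at E12.5, and overlapped at the other 2. At E12.5 Dll1 stood at 142.1, 157.5 and 170.4 TPM in BP and at 120.4, 124.3 and 99.7 in NSC, and at PN at 13.3 and 15.9 in BP against 58.1, 63.5 and 50.3 in NSC. The difference was -1.68 over E17.5 to PN and passed the minimum there.

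Dll3 (chromosome 7, 28293553 to 28302238, minus strand) differed by 0.02 ± 0.06 (limma, adjusted p = 0.722), an average over stages that pointed both ways. At E12.5 it stood at 104.6, 120.4 and 125.2 TPM in BP against 31.6, 55.4 and 38.8 in NSC, its highest group mean of the series (116.7 TPM). At E17.5 it stood at 21.3 and 20.2 TPM in BP against 33.3, 55.3 and 49.3 in NSC. BP libraries were all lower at 3 stages, all higher at 2 and overlapped NSC at 3, and without E12.5 the mean difference was -0.19.

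Mfng (chromosome 15, 78755882 to 78773475, minus strand), the Fringe enzyme of the group, was not called in BP against NSC (0.22 ± 0.05, limma, adjusted p = 0.000129, under the minimum difference). BP libraries were all below NSC libraries at 3 stages and all above at 4. The order depended on the stage: at E14.5 Mfng stood at 134.0, 123.8 and 125.5 TPM in BP and 218.0, 191.8 and 152.9 in NSC, and at PN at 161.5 and 190.5 TPM in BP and 66.2, 85.8 and 71.0 in NSC.

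Hes1 and Hes5 were far lower in BP than in NSC, and Hes6 was high in both. Hes1 (chromosome 16, 30064384 to 30067796, plus strand), a repressor of proneural genes, differed by -3.60 ± 0.10 (limma, adjusted p = 4.38e-36), with NSC libraries from 5.38 to 72.6 TPM (median 26.4, n = 27) and BP libraries from 0.27 to 2.33 (median 1.11, n = 23). Hes5 (chromosome 4, 154960923 to 154962371, plus strand), whose promoter drove the NSC reporter, ran from 47.4 to 536.2 TPM in NSC and from 2.33 to 8.21 in BP over those stages. Hes6 (chromosome 1, 91411483 to 91414038, minus strand) ran from 185.9 to 405.9 TPM in NSC (median 290.5) and from 181.8 to 299.6 in BP (median 224.5), a difference of -0.31 ± 0.04 (limma, adjusted p = 6.26e-10) that is under the minimum. Hes6 libraries of BP and NSC overlapped at 3 of 8 stages and BP lay below at the other 5.

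**Figure D2:**
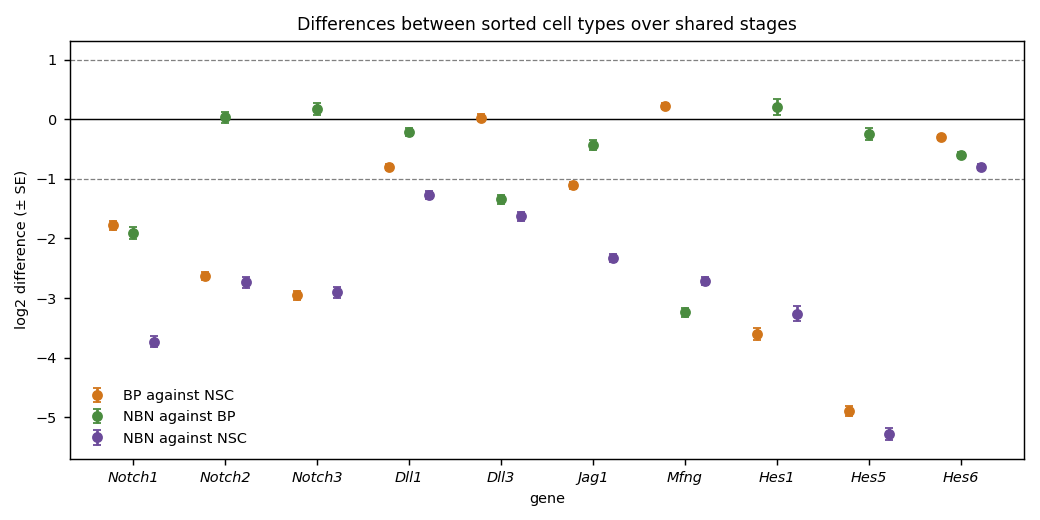
Log2 differences (points, with SE as bars) of the 10 genes between sorted cell types over shared stages on the log2(TPM + 1) scale, with dashed lines at the minimum difference of 1. The points for BP against NSC lie far below 0 for the receptors, Hes1 and Hes5, those for NBN against BP for Notch1, Dll3 and Mfng, and Hes5 is shown as a check of the sort.

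Of 41 other Notch pathway genes tested (43 listed), 5 were lower in BP than in NSC by limma and none was higher. Of all genes tested, 6.22% were called lower and 1.87% higher. The median was -0.02 over the 41 genes and -0.02 over all genes. An unadjusted p under 0.05 was reached by 34 of the 41 and by 11992 of all 15508 genes. Of the 5 called, those with the largest differences were Lfng (-4.03 ± 0.08), another Fringe enzyme, Id4 (-2.08 ± 0.07), an inhibitor of basic helix-loop-helix factors, and Nrarp (-2.05 ± 0.07), a Notch target that limits the pathway. Lfng stood at a median of 36.6 TPM in 27 NSC libraries (9.69 to 192.7) and 1.64 in 23 BP libraries (0.51 to 6.69). Among proneural genes, Neurod1 (1.40 ± 0.08) and Neurod4 (1.03 ± 0.08) were higher in BP, and Neurog1 (0.07) and Neurog2 (0.11) were not called.

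NBN libraries were compared with BP libraries, both from the Tbr2::GFP line, over the 5 stages E15.5 to PN. Of 10 genes, 3 were lower in NBN by limma and none was higher, against 5.06% of all genes called lower and 4.36% higher. An unadjusted p under 0.05 was reached by 7 of the 10 and by 11121 of all 15508 genes. The largest difference was that of Mfng, which fell by 3.24 ± 0.07 on the log2 scale (limma, adjusted p = 6.25e-40). Mfng ran from 120.8 to 226.0 TPM in 14 BP libraries (median 153.0) and from 7.64 to 25.8 in 14 NBN libraries (median 17.0), with no overlap. Notch1 fell by 1.91 ± 0.10 (adjusted p = 1.22e-23) and Dll3 by 1.34 ± 0.08 (adjusted p = 9.89e-22). Dll3 ran from 20.2 to 45.2 TPM in BP and from 6.47 to 16.6 in NBN. The stem cell, neuron and basal progenitor sums given above also differed between these fractions, and their part was not tested.

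Notch1, Dll3, Mfng and Hes6 lay apart and lower in NBN at all 5 stages, an arrangement that 18.6% of all genes shared. Hes6, at -0.60 ± 0.05 (limma, adjusted p = 9.24e-15), was under the minimum difference, with 181.8 to 260.1 TPM in BP and 119.4 to 184.8 in NBN. The remaining receptors were not called: Notch3 differed by 0.17 ± 0.10 and Notch2 by 0.03 ± 0.10. For Notch2 the libraries were apart at each stage, lower in NBN at 2 stages and higher at 3, and the difference up to E16.5 was -0.33. At E15.5 Notch2 stood at 4.07, 4.59, 4.38 and 4.17 TPM in BP and at 3.18, 2.86, 2.83 and 3.50 in NBN, and at PN at 4.27 and 4.33 in BP and 6.26 and 6.19 in NBN.

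Dll1 and Jag1 stayed under the minimum between these fractions (-0.22 ± 0.07 and -0.43 ± 0.08), as did Hes1 (0.21 ± 0.14), and none was called by limma. Hes1 stood at a median of 1.26 TPM in BP and 1.39 in NBN, low in both. NBN libraries held Dll1 at 16.7 to 31.1 TPM, so RNA of this ligand was present in the fraction with the lowest summed receptor level. Of the other 41 pathway genes, 4 were higher in NBN and 4 lower, with a median of -0.21. Of all genes, 4.36% were called higher and 5.06% lower, with a median of -0.07. Named here are the pathway genes with the largest called differences. Higher were the Delta-like and related genes Dlk2 (1.89 ± 0.10) and Dner (1.47 ± 0.08) and the ligand Jag2 (1.42 ± 0.09), and lower were Maml3 (-1.87 ± 0.08), a coactivator of the Rbpj complex, Nrarp (-1.30 ± 0.09) and the ligand Dll4 (-1.17 ± 0.09). The proneural genes Neurog1 (-1.13 ± 0.12), Neurod1 (-2.17 ± 0.10), Neurog2 (-2.34 ± 0.10) and Neurod4 (-3.78 ± 0.11) were lower.

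Over the same 5 stages NBN were compared with NSC, the widest of the 3 contrasts, which shares its libraries with the other 2. By limma 8 of 9 genes were lower in NBN and none was higher, against 12.6% of all genes called lower and 6.51% higher. Differences ran from -1.28 ± 0.06 for Dll1 (adjusted p = 2.45e-25) to -3.73 ± 0.09 for Notch1 (adjusted p = 1.95e-38). Hes6 alone was under the minimum, at -0.80 ± 0.05. All 9 genes lay apart and lower in NBN at each of the 5 stages, against 15.2% of all genes. The call for Dll1 was lost over the 2 stages up to E16.5, where the difference was -0.66. Of 41 other pathway genes 10 were lower, led by Lfng (-4.06 ± 0.10), Nrarp (-3.24 ± 0.08) and the target Hey1 (-2.39 ± 0.06), and 2 were higher, Dlk2 (2.39 ± 0.10) and Jag2 (2.02 ± 0.08). All genes together had a median of -0.13 here, and 0.04 after quantile normalization, under which the same count of 8 was lower. Of all genes called, 34.1% were higher, against 49.4% after quantile normalization.

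The make-up of each class of genes differed between fractions, which is given as a description without a test over the 5 stages that all 3 share (17 NSC, 14 BP and 14 NBN libraries). Notch1 made 64.9% ± 2.48 (SD) of summed receptor TPM in NSC, 82.4% ± 2.15 in BP and 52.5% ± 7.38 in NBN. Hes6 made 57.3% ± 15.7 of summed Hes gene TPM in NSC, 97.5% ± 0.703 in BP and 96.8% ± 0.773 in NBN. That sum includes Hes5, the gene of the NSC reporter, which averaged 209.9 TPM in NSC, 4.49 in BP and 3.51 in NBN. The share of Hes6 is thus tied to the sort, and Hes6 itself averaged 249.4, 218.2 and 143.1 TPM. Among ligands, Dll3 made 32.2% ± 4.35 in NSC, 46.3% ± 12.46 in BP and 29.7% ± 6.69 in NBN. The summed receptor level was 168.9 ± 86.0 TPM in NSC, 34.1 ± 6.53 in BP and 12.9 ± 2.95 in NBN, while the summed ligand level was 104.3 ± 31.3, 60.5 ± 11.9 and 35.4 ± 6.14. Over all 8 BP stages the ligand sum was 104.8 ± 77.4 TPM, with the highest stage mean at E12.5.

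**Figure D3:**
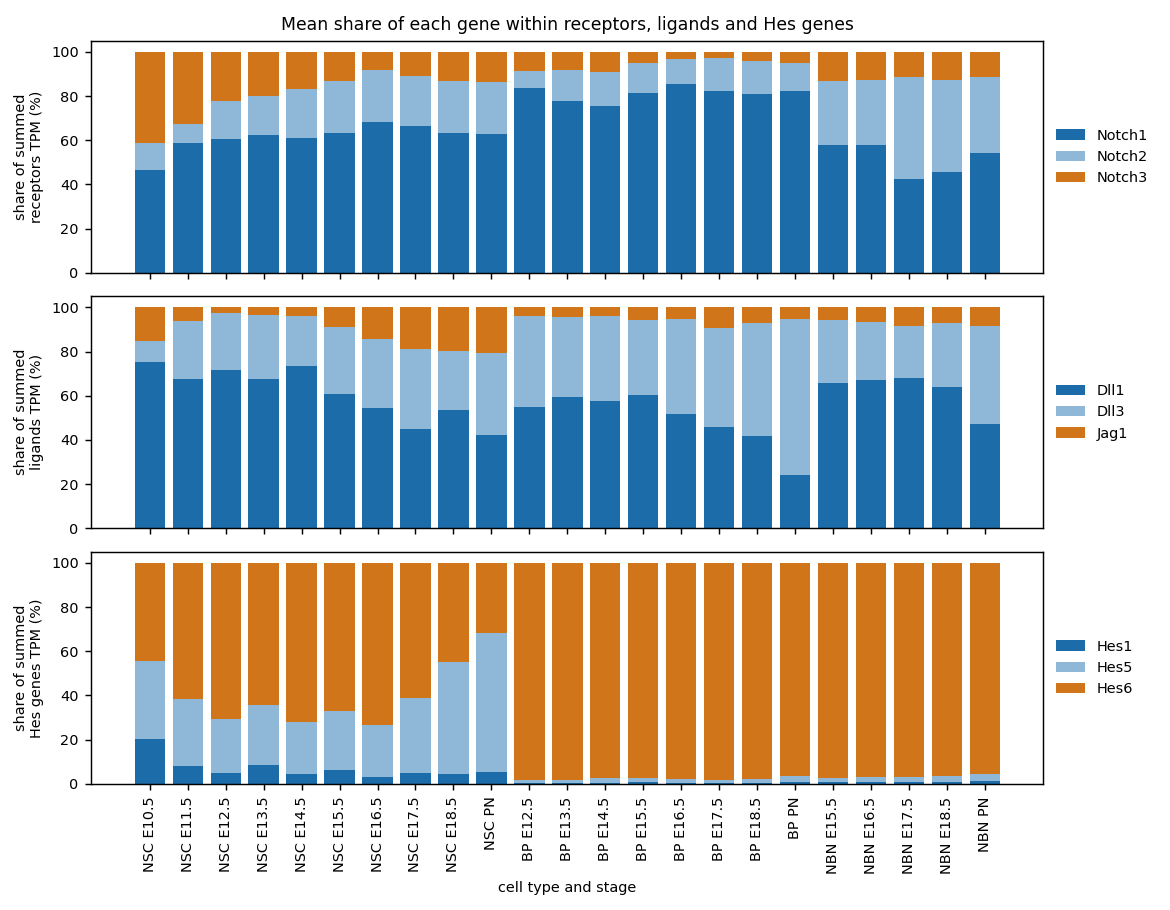
Mean share (%) of each gene in the summed TPM of 3 receptors (top), 3 ligands (middle) and 3 Hes genes (bottom) in each of 23 groups, from NSC at left through BP to NBN at right. Notch3 takes 41.4% of receptor TPM in NSC at E10.5 and 8.26% at E16.5, Hes6 takes nearly all Hes gene TPM in BP and NBN, and Dll3 takes 70.5% of ligand TPM in BP at PN. The Hes gene sum includes Hes5, whose promoter drove the NSC reporter.

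Within NSC, the neurogenic stages E13.5 to E15.5 were compared with the early stages E10.5 and E11.5. By limma 2 of 10 genes were lower at the middle stages and none was higher, against 5.26% of all genes called lower and 13.7% higher. An unadjusted p under 0.05 was reached by 9 of the 10 and by 12114 of all 15508 genes. Notch3 fell by 1.70 ± 0.13 on the log2 scale (adjusted p = 7.29e-17) and Jag1 by 1.13 ± 0.10 (adjusted p = 5.26e-15). Notch3 ran from 49.7 to 66.3 TPM in 6 early libraries and from 8.27 to 38.2 in 11 middle libraries, and Jag1 from 10.2 to 19.4 and from 4.19 to 9.57, without overlap for either gene. The share of all genes without overlap was not computed for this contrast. Jag1 was not called with a pseudocount of 5 (-0.82).

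Notch1 (-0.34 ± 0.13), Notch2 (0.42 ± 0.12), Dll1 (-0.36 ± 0.09), Dll3 (0.47 ± 0.10), Mfng (0.35 ± 0.09), Hes1 (-0.56 ± 0.18) and Hes5 (0.17 ± 0.13) were all under the minimum difference. Hes6 came close to it at 0.89 ± 0.07 (limma, adjusted p = 4.05e-17), and passed it without E15.5 (1.11). The median over all genes in this contrast was 0.14, and -0.04 under median ratio scaling or quantile normalization. Of the genes called higher or lower, 72.3% were higher, against 53.0% and 52.1% under those scalings. Notch3 and Jag1 stayed lower by more than the minimum under both, and the sign of Hes5 turned under the first (-0.09). Of 41 other pathway genes 7 were higher and 1 lower. Dner (2.30 ± 0.11), Dlk2 (2.09 ± 0.13) and Neurl1b (2.07 ± 0.09), a ligase that acts on ligands, rose, and Dlk1 (-5.42 ± 0.27), a Delta-like gene, fell from a median of 330.7 TPM to 4.30. The proneural genes Neurog2 (2.70 ± 0.13), Neurod1 (2.67 ± 0.13) and Neurod4 (1.26 ± 0.14) rose. Erythroid RNA was high in the early libraries, as given above, and the neuron markers went from a mean of 424.2 TPM at E10.5 to 5689 at E15.5. Their part in these differences was not tested.

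The late stages E17.5 to PN were then compared with E13.5 to E15.5 in NSC. By limma 4 of 10 genes were higher and none was lower, against 9.31% of all genes called higher and 2.45% lower. Jag1 rose by 1.91 ± 0.09 (adjusted p = 5.30e-26), Hes5 by 1.504 ± 0.12 (adjusted p = 1.54e-16), Notch2 by 1.301 ± 0.11 (adjusted p = 2.08e-15) and Notch1 by 1.23 ± 0.12 (adjusted p = 6.30e-14). Jag1 ran from 4.19 to 9.57 TPM in 11 middle and from 22.3 to 30.5 in 9 late libraries, Notch2 from 14.4 to 33.6 and from 40.1 to 67.5, and Notch1 from 39.7 to 116.9 and from 123.4 to 178.1, with no overlap for any of the 3. Hes5 ran from 66.9 to 175.9 and from 153.3 to 536.2, with overlap. How many of all genes lay without overlap here was not computed.

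Notch3 (0.79 ± 0.12), Dll3 (0.36 ± 0.09) and Hes1 (0.33 ± 0.16, adjusted p = 0.0583) were not called by limma, nor were Dll1 (-0.45 ± 0.08), Mfng (-0.45 ± 0.08) and Hes6 (0.01 ± 0.06). Notch3 passed the minimum when the middle window ran from E12.5 to E16.5 (1.08), and Notch1 fell just short without E15.5 (0.98). Of 41 other pathway genes 6 rose, led by the coactivator Maml2 (2.07 ± 0.08), Lfng (1.80 ± 0.13) and Heyl (1.47 ± 0.09), and 1 fell, Numbl (-1.07 ± 0.05), a relative of the Notch inhibitor Numb. Among proneural genes Neurog1 (-3.04 ± 0.14) and Neurod1 (-1.02 ± 0.12) fell. The median over all genes was 0.12 here and -0.07 after quantile normalization, under which the same count of 4 was called. Of all genes called, 79.2% were higher, against 57.8% after quantile normalization.

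Several marker sums moved with this contrast. In NSC the 7 stem cell markers summed to 1720 to 3970 TPM in the middle libraries and 5855 to 11630 in the late ones, and the 8 neuron markers to 2705 to 6183 and 887.6 to 2564. The 6 pericyte and smooth muscle markers, cells in which Notch3 is well known, summed to 10.1 to 25.2 TPM and 27.0 to 84.1, with Kcnj8 and Abcc9 at a median under 1 TPM over all NSC libraries. The 7 endothelial markers, for cells that use Jag1 and Dll4, summed to 1.32 to 33.1 and 4.72 to 48.9. The 5 oligodendrocyte precursor markers went from 5.05 to 45.6 TPM up to 372.5 to 1633, the 5 astrocyte markers from 114.2 to 261.3 up to 725.0 to 3359, and the 8 dissociation stress genes from 211.8 to 549.2 up to 364.4 to 1321. The 3 ependymal markers went from 6.07 to 16.2 TPM up to 17.8 to 52.3, the 6 interneuron and ventral markers from 42.5 to 702.3 up to 286.0 to 1030, and the 6 cell cycle genes from 508.9 to 1401 up to 1011 to 1938. As a share of the summed stem cell markers, Notch1 stood at 4.03%, 2.05% and 2.03% at E13.5, E14.5 and E15.5 and at 2.43%, 1.31% and 1.59% at E17.5, E18.5 and PN. Notch2 stood at 1.12%, 0.739% and 0.760% and then at 0.822%, 0.487% and 0.592%, so neither gene was higher throughout the late stages on that scale. Jag1 stood at 0.293%, 0.174% and 0.274% and then at 0.359%, 0.239% and 0.267%, and Hes5 at 5.12%, 3.64% and 3.69% and then at 2.61%, 3.05% and 4.52%. Set against Sox2 alone, Jag1 stood at ratios of 0.033, 0.035 and 0.051 and then at 0.084, 0.070 and 0.072. Hes5 stood at 0.59, 0.75 and 0.67 and then at 0.60, 0.90 and 1.22. Notch1 stood at 0.47, 0.42 and 0.38 and then at 0.56, 0.39 and 0.43. Notch2 stood at 0.13, 0.15 and 0.14 and then at 0.19, 0.14 and 0.16. The part of these markers in the rise of Notch1, Notch2, Jag1 and Hes5 was not tested.

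Steps from 1 day to the next placed these changes. Of 90 steps (10 genes over 9 steps) 17 were called by limma, against 5.89% of all gene steps. Neighbouring steps share the libraries of a stage, so their calls are not separate. At the first step, E10.5 to E11.5, Dll3 (2.10 ± 0.16), Mfng (1.503 ± 0.15) and Hes6 (1.13 ± 0.11) rose, 3 of 10 against 7.59% of all genes called higher. Dll3 went from 8.36, 10.9 and 14.51 TPM to 40.3, 54.4 and 58.9, and Mfng from 64.4, 70.4 and 75.8 to 180.6, 197.1 and 226.0. All E11.5 libraries lay above all E10.5 libraries for both, without a share over all genes to set beside this. The call for Hes6 was lost under median ratio scaling (0.93) and quantile normalization. Over the same step the neuron markers went from a mean of 424.2 to 2216 TPM, and their part was not tested.

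At E11.5 to E12.5, Notch3 (-1.97 ± 0.21), Notch1 (-1.43 ± 0.21) and Jag1 (-1.34 ± 0.16) fell, 3 of 10 against 4.79% of all genes called lower, and at E12.5 to E13.5 Notch1 (1.47 ± 0.19), Notch2 (1.36 ± 0.19) and Notch3 (1.25 ± 0.20) rose, 3 of 10 against 3.60% called higher. E12.5 was therefore lower than the stages on either side for Notch1 and Notch3, while the difference of Notch2 into E12.5 (-0.42 ± 0.20) was not called. Notch1 stood at 109.3, 104.5 and 86.8 TPM at E11.5, at 42.8, 45.3 and 24.8 at E12.5, and at 76.4, 116.9, 109.6 and 111.7 at E13.5. The E12.5 libraries lay below those on either side, and the fall and the rise both rest on these same 3 libraries. Over E11.5, E12.5 and E13.5 erythroid RNA averaged 3690, 123.2 and 63.2 TPM, the cell cycle genes 1496, 1001 and 1238, the oligodendrocyte precursor markers 55.3, 6.66 and 23.7 and the neuron markers 2216, 3148 and 2847, and their part was not tested. Replicate 3 of E12.5 was lowest for all 3 receptors, and without it Notch3 was not called for the second step (0.87). With library weights, which set NSC E12.5 replicate 1 at 17.9 against 0.646 and 0.201 for replicates 2 and 3, Notch2 (0.94) and Notch3 (0.96) were not called there either, nor was Notch3 after quantile normalization (0.92). The fall of Jag1 from E11.5 to E12.5 was not called under 1 of 12 other settings (-0.895).

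Dll3 and Dll1 each had 1 called fall in NSC. Dll3 fell from E13.5 to E14.5 (-1.02 ± 0.15, against 1.06% of all genes called lower), from 49.5, 78.2, 60.2 and 53.7 TPM to 31.1, 25.4 and 30.6. The groups did not overlap, though the call was lost without E13.5 replicate 2 (-0.89) or E14.5 replicate 2 (-0.93), or with a pseudocount of 5 (-0.93). Dll1 fell from E14.5 to E15.5 (-1.08 ± 0.13, adjusted p = 1.66e-08 by limma, against 0.516% of all genes), from 104.1, 99.7 and 79.7 TPM to 45.2, 47.2, 45.9 and 38.1. Mfng stood just under the minimum at the same step (-0.999 ± 0.138). From E15.5 to E16.5 none of the 10 genes was called by limma, against 3.92% of all genes called in either direction. At that step 4 of the 10 and 7845 of all 15508 genes had an unadjusted p under 0.05.

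The most crowded step was E16.5 to E17.5, with 6 of 10 genes called higher against 6.28% of all genes, and 12.3% called in either direction. Notch3 (1.65 ± 0.20), Hes1 (1.46 ± 0.27), Notch1 (1.31 ± 0.19), Notch2 (1.25 ± 0.19), Hes5 (1.25 ± 0.20) and Jag1 (1.06 ± 0.15) rose, all receptors and both NSC-enriched Hes genes among them. Hes1 went from 8.45, 5.38, 6.99 and 16.9 TPM to 24.3, 24.9 and 27.2, and Notch3 from 7.71, 5.62, 7.20 and 10.6 to 21.7, 28.8 and 27.8. Hes5 went from 87.1, 47.4, 64.8 and 90.3 TPM to 153.3, 164.5 and 187.1. Every E17.5 library lay above every E16.5 library for these 3 genes, as for Notch1, Notch2, Jag1, Dll1 and Dll3, but not for Hes6 and Mfng. The share of all genes arranged in this way was not computed. Dll3 (0.91), Hes6 (0.49), Dll1 (0.45) and Mfng (0.44) were under the minimum, and Jag1 was not called without E16.5 replicate 2 (0.92) or with a pseudocount of 5 (0.85).

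**Figure D4:**
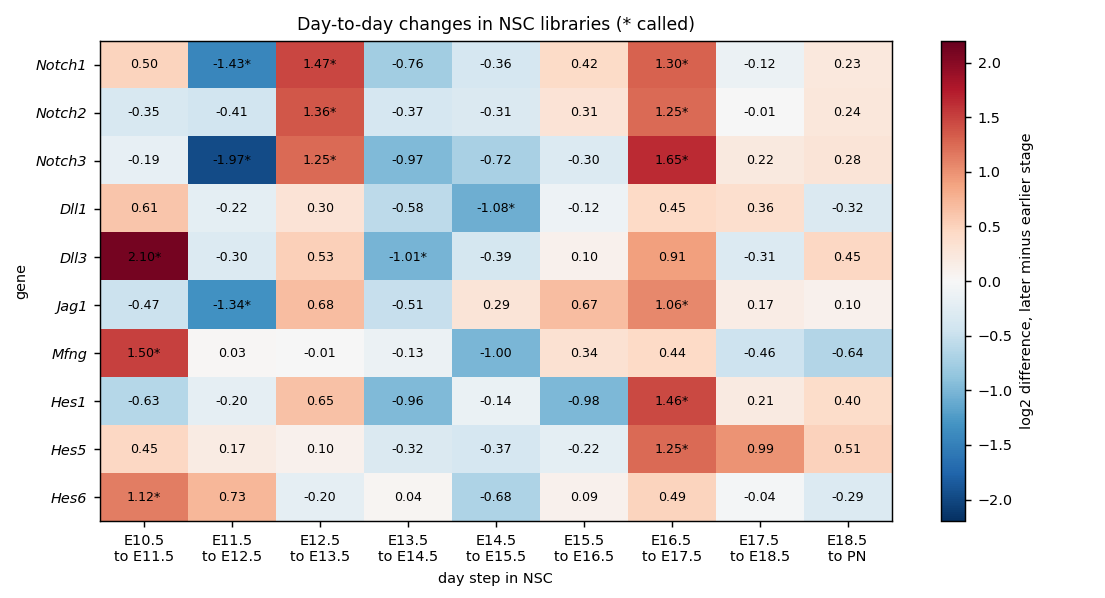
Log2 difference on the log2(TPM + 1) scale between each NSC stage and the stage before for the 10 genes, with an asterisk where limma called the step. Called rises cluster at E16.5 to E17.5 (6 genes), and Notch1 and Notch3 fall into E12.5 and rise out of it.

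Stem cell markers went over the same step from a mean of 2338 to 6480 TPM, and neuron markers went from 4819 to 1932. As a share of the summed stem cell markers, 4 of the 6 called genes were lower at E17.5 than at E16.5: Hes5 went from 3.22% to 2.61%, Notch1 from 2.88% to 2.43%, Notch2 from 0.998% to 0.822% and Jag1 from 0.481% to 0.359%. Notch3 went from 0.347% to 0.406% and Hes1 from 0.391% to 0.394%. These are means, and the libraries of the 2 stages lay apart on that scale for Jag1 alone (0.421% to 0.540% and 0.342% to 0.381%). Set against Sox2 alone the means of all 6 were higher. The ratio went from 0.5264 to 0.602 for Hes5, 0.477 to 0.559 for Notch1 and 0.166 to 0.193 for Notch2. It went from 0.0800 to 0.0837 for Jag1, 0.0574 to 0.0928 for Notch3 and 0.0674 to 0.0915 for Hes1. Libraries lay apart on this scale for Notch3 alone (0.0427 to 0.0669 and 0.0886 to 0.0963), and those of the other called genes overlapped. How far the cell make-up of the fraction enters was not tested.

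After E17.5 no step of any of the 10 genes was called by limma. Of all genes, 3.79% were called from E17.5 to E18.5 and 6.44% from E18.5 to PN. An unadjusted p under 0.05 was found for 3 of 10 and 6314 of all 15508 genes from E17.5 to E18.5. From E18.5 to PN it was found for 5 of 10 and 8084 of 15508. Hes5 came closest to a call, at 0.99 ± 0.22 from E17.5 to E18.5. Its group means were 168.3, 335.7 and 478.6 TPM over E17.5, E18.5 and PN. The libraries of these 3 stages did not overlap. The share of Hes6 in Hes gene TPM, a sum that includes Hes5, went from 61.3% through 44.9% to 31.9%. Hes6 itself had group means of 306.8, 296.5 and 241.7 TPM, and neither step was called (-0.045 ± 0.11 and -0.295 ± 0.11).

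BP were compared over the same windows, E17.5 to PN against E13.5 to E15.5. By limma 1 of 10 genes was lower, Dll1, and none was higher, against 1.42% of all genes called lower and 3.29% higher. An unadjusted p under 0.05 was reached by 6 of the 10 and by 9878 of all 15508 genes. Dll1 fell by 1.63 ± 0.09 on the log2 scale (adjusted p = 1.24e-22), from 41.2 to 85.8 TPM in 10 middle libraries to 13.3 to 23.02 in 7 late ones, without overlap. Its group means in BP ran from 156.7 TPM at E12.5 through 81.0, 57.2, 44.3, 34.3, 21.2 and 20.2 to 14.6 at PN, lower at each stage than at the one before. The other 9 lay between -0.36 (Dll3) and 0.44 (Notch1). The median over all genes was 0.12, and -0.01 after quantile normalization. Of all genes called, 69.9% were higher, against 57.7% under median ratio scaling and 49.9% after quantile normalization, and Dll1 was called under both. In BP the astrocyte markers summed to 11.51 to 37.4 TPM in the middle and 41.0 to 193.0 in the late libraries, the oligodendrocyte precursor markers to 0.98 to 1.80 and 3.91 to 19.1, the interneuron and ventral markers to 3.97 to 10.4 and 10.7 to 50.3, and the stress genes to 121.1 to 184.5 and 207.0 to 312.7. Their part was not tested. Of 41 other pathway genes 3 fell, Hey1 (-2.03 ± 0.09), Dner (-1.48 ± 0.11) and Dlk1 (-1.18 ± 0.26), and 1 rose, Fbxw7 (1.11 ± 0.09), part of a ligase that marks cut Notch for destruction.

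In NBN, E17.5 to PN were compared with E15.5 and E16.5. By limma none of the 10 genes was called, against 2.33% of all genes called in either direction. An unadjusted p under 0.05 was reached by 5 of the 10 and by 6738 of all 15508 genes. The largest differences were Notch2 (0.62 ± 0.13, adjusted p = 0.000176), Dll1 (-0.51 ± 0.09, adjusted p = 1.44e-05) and Hes5 (0.50 ± 0.14, adjusted p = 0.0049). Notch2 ran from 2.83 to 4.39 TPM in 7 earlier and from 4.5999 to 6.55 in 7 later NBN libraries, without overlap. In the same libraries the 5 microglia markers summed to 3.95 to 15.1 TPM in the earlier and 12.7 to 33.0 in the later stages, the oligodendrocyte precursor markers to 1.28 to 5.61 and 20.1 to 38.9, and the astrocyte markers to 18.3 to 50.5 and 50.3 to 198.4, and their part was not tested. None of the 41 other pathway genes was called, with 22 at an unadjusted p under 0.05, against 6738 of all 15508 genes.

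Whether the late change differed between BP and NSC was tested as an interaction, the change in BP minus the change in NSC. By limma 4 of 9 genes had a lower value in BP and none a higher one, against 6.85% of all genes called lower and 2.86% higher. Jag1 differed most (-2.15 ± 0.13, adjusted p = 5.30e-20): it rose in NSC as given above, while in BP it ran from 3.68 to 6.05 TPM in the middle and from 2.88 to 4.94 in the late libraries. Dll1 (-1.18 ± 0.12, adjusted p = 1.01e-12) changed by -1.63 in BP and differed by -0.45 in NSC, where it ran from 38.1 to 158.7 and from 49.4 to 73.6 TPM. Notch3 (-1.11 ± 0.18, adjusted p = 3.86e-07) and Notch2 (-1.01 ± 0.16, adjusted p = 7.60e-07) differed by 0.79 and 1.301 in NSC and by -0.33 and 0.29 in BP, where Notch3 ran from 0.66 to 2.60 and from 0.95 to 1.75 TPM.

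Jag1 alone was called without E15.5, the stage with most neuron marker RNA in NSC: Notch2 then stood at -0.73, Notch3 at -0.78 and Dll1 at -0.92. Notch2 sat at the threshold and was lost without any 1 of 14 libraries taken in turn, with values from -0.94 to -0.999. These were NSC E13.5 replicate 1, E14.5 replicate 3, E15.5 replicates 1 and 4, E17.5 replicate 1, E18.5 replicate 2 and PN replicate 1, and BP E13.5 replicates 2 and 3, E14.5 replicates 1 and 3, E15.5 replicate 2, E17.5 replicate 2 and E18.5 replicate 2. Notch2 was also lost with a pseudocount of 0.1 (-0.97) and Notch3 with a pseudocount of 5 (-0.78). Hes5, left out of the count, differed by -1.39 ± 0.18. Of 41 other pathway genes 6 were lower, led by Hey1 (-2.04 ± 0.11), Lfng (-1.87 ± 0.19) and Dner (-1.47 ± 0.14), and 2 higher, Dlk2 (1.26 ± 0.17) and Jag2 (1.10 ± 0.15).

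Ordered by mean level over the 23 groups, Notch1, Notch2, Notch3 and Hes1 had all 10 NSC groups above all 13 BP and NBN groups. So did Hes5, which checks the sort. The share of all genes with such an order, or with overlapping neighbours, was not computed. Neighbours in these orders mostly overlapped, for 19 of 22 neighbouring pairs in Notch1, Notch2 and Hes1, 18 in Hes5 and 16 in Notch3. For Notch1 the breaks lay below NSC E18.5 (144.0 TPM), below NSC E11.5 (100.2) and below NBN PN (9.86). For Hes5 they lay below PN (478.6) and E18.5 (335.7), below NSC E14.5 (106.9), and below NSC E16.5 (72.4), which was followed by BP PN at 7.28. Notch3 was highest in NSC at E10.5 (62.9) and E11.5 (55.3), which overlapped each other and stood apart from PN (37.2).

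The other 5 genes mixed the cell types. Dll1 (156.7 TPM), Dll3 (116.7) and Mfng (228.0) had their highest group mean in BP at E12.5. For Dll3 that group stood apart from the next, NSC E13.5 (60.4), while for Dll1 and Mfng it overlapped with the next (141.9 and 205.7, both NSC E13.5). Hes6 was highest in NSC at E12.5 (366.6) and lowest in NSC at E10.5 (100.7), below all NBN groups, and 20 of 22 of its neighbouring pairs overlapped. Jag1 was highest in NSC at PN (28.2), E18.5 (26.3) and E17.5 (23.2), apart from the next, NSC E10.5. Mfng had a single gap between cell types, from NSC E10.5 (70.2) to NBN PN (25.3).

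Correlations of group means on the log2(TPM + 1) scale are given as a description over 23 groups, which share libraries and cell make-up between genes. Hes1 and Hes5 (Pearson r = 0.97), Hes1 and Notch3 (0.97) and Hes5 and Notch2 (0.94) were the closest pairs. Dll3, Mfng and Hes6 formed another set (0.83 for Dll3 and Mfng, 0.81 for Dll3 and Hes6, 0.76 for Mfng and Hes6) with low values against Notch2 (0.20 for Dll3, 0.22 for Mfng). Notch1 correlated with both sets, at 0.88 with Hes5 and 0.67 with Mfng.

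**Figure D5:**
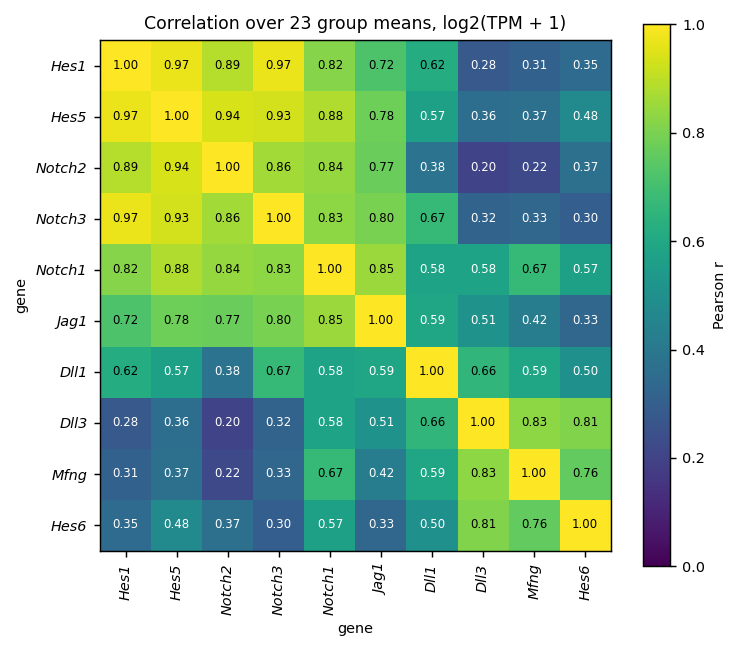
Pearson correlation (colour and number) between each pair of the 10 genes over 23 group means on the log2(TPM + 1) scale. Hes1, Hes5 and the receptors form a block with values of 0.82 and above, and Dll3, Mfng and Hes6 a block with values of 0.76 and above.

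Among 9207 other genes ranked by the same measure, those whose pattern was most like each gene's were as follows. Hes5 was closest to Zfp36l1 (r = 0.986), Sox9 and Gas1, and Hes1 to Zfp36l1 (0.984), Psat1 and Syde1. Notch1 was closest to Litaf (0.982), Notch2 to Plce1 (0.982) and Notch3 to Syde1 (0.985) and Nes (0.983), which encodes the progenitor filament nestin. Dll1 was closest to Spsb4 (0.965) and Jag1 to Jam2 (0.938). Mfng was closest to Prr14 (0.956), Dll3 to Akna (0.919) and Hes6 to Stk11 (0.913), the lowest top value of the 10.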

How the data were processed

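The deposited file holds gene-level TPM for 70 libraries, estimated with kallisto 0.43.0, with builds GRCm38.p2 and mm10 named, per the submitters' processing notes. Single-end reads of 50 bases were sequenced, per the labels' protocols. Because TPM are scaled to 1 total per library, a rise in a few abundant genes lowers all others, and the depth cannot be recovered. Intervals and limits that need counts were not computed. Columns were mapped to samples by title.

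The deposited TPM were analysed as log2(TPM + 1), a scale that shrinks differences of genes with low values. Tested genes reached 1 TPM or more on average in some group. With limma 3.58.1 (R 4.3.3), a mean per group was estimated over all 70 libraries, which left 47 residual degrees of freedom, and variances were moderated along a trend. Benjamini-Hochberg adjustment ran over all genes within a comparison. A call needed an adjusted p under 0.05 and a log2 difference of 1 or more in size, and the stages of a contrast weighed equally. Shares of all genes whose libraries lay apart were computed for the cell type comparisons at every shared stage alone. Other statements of overlap have no such share beside them. The method was checked on simulated data of known change.

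The 10 genes and all lists were chosen with earlier results of these data known. Other genes were named by rule: up to 3 called pathway genes per direction with the largest difference, the proneural genes, and up to 3 genes of highest correlation among those with a group mean of at least 20 TPM. Gene positions are from a GRCm38 annotation, matched by identifier. A gene of the proneural list is not reported here. Alternatives covered pseudocount, filter, scaling, variance trend, library weights, replicate block, stage windows and each library left out. Those without E12.5, E15.5, E15.5 with E16.5, PN or the 4 libraries with most genes were chosen after seeing the data.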

Additional observations from a re-analysis of the deposited data

Results flagged for a closer look

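In groups of 4 libraries, a library was singled out where its gap to the nearest other took up most of the group's range. This was checked for 10 genes in 5 groups, 50 cases, of which 5 stood out, where chance gives about 1 in 20. Jag1 in NSC at E15.5 stood at 7.94 TPM in replicate 3, against 5.58 to 5.89 in the others. Hes5 stood at 175.9 TPM in NSC E13.5 replicate 1, against 116.5 to 123.2, and at 66.9 in NSC E15.5 replicate 4, against 87.0 to 88.4. NSC E16.5 replicate 4 was high for both Hes6 (301.0 TPM, against 185.9 to 201.9) and Mfng (175.9, against 97.6 to 105.9).

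The change from E13.5 to E15.5 into E17.5 to PN differed between BP and NSC by the interaction in limma for Jag1 (-2.15), Hes5 (-1.39), Dll1 (-1.18), Notch3 (-1.11) and Notch2 (-1.01), each with a lower value in BP. Reporter line and cell type cannot be told apart in these differences.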

How the results depend on the processing

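Libraries were not treated as paired by replicate number. Deviations of same-numbered libraries correlated above 0.1 in 8 of 14 pairs for BP and NBN (median 0.124). They did so in 9 of 23 for NSC and BP (median 0.044) and 1 of 14 for NSC and NBN (median -0.039). Differently numbered libraries were not compared, so these values cannot decide on pairing, least of all for BP and NBN. A replicate block gave each replicate number the same effect in all groups, so it does not model pairing within a stage. This block changed no count of called genes among the 10, and moved calls over all genes in BP against NSC from 1255 to 1259. It turned the sign of Jag1, NBN late against early, to 0.006.

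The counts over the 10 genes stayed within 1.5 times under the other settings with these exceptions. With a pseudocount of 5, NSC mid against early kept 1 call. Without a minimum difference the calls were as follows, with the calls over all 15508 genes in brackets. They were 8 for BP against NSC (11818), 7 for NBN against BP (10821) and 9 for NSC mid against early (11958). They were 8 for NSC late against mid (10873), 6 for BP late against mid (9311) and 5 for NBN late against early (5350). They were 8 for the BP-NSC difference late against mid (8088) and 47 for the NSC day steps (not computed over all genes). Without E15.5 the BP-NSC difference late against mid kept 1 call. Leaving out each library in turn left the counts at 5 (BP against NSC), 3 (NBN against BP), 8 (NBN against NSC), 2 (NSC mid against early), 4 (NSC late against mid), 1 (BP late against mid) and 0 (NBN late against early), and gave 3 to 4 for the BP-NSC difference and 16 to 19 for the NSC day steps. Counts of other Notch pathway genes called moved more. Without a minimum difference they were 18 (NBN late against early) to 37 (NBN against NSC), where 5350 and 12551 of all 15508 genes were called. With a pseudocount of 5 they went from 5 to 3 (BP against NSC), 8 to 5 (NBN against BP), 8 to 3 (NSC mid against early), 7 to 3 (NSC late against mid), 4 to 2 (BP late against mid) and 8 to 5 (BP-NSC difference). In NSC mid against early both other scalings gave 5. BP against NSC gave 11 from E17.5 and 8 without E15.5 and E16.5, NBN against NSC gave 6 up to E16.5, and NBN late against early gave 1 with a pseudocount of 0.1, after quantile normalization or without NBN E16.5 replicate 1.

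Signs turned only for values under the minimum difference, and the cause was not tested. Notch1, NBN late against early, was 0.000 with a pseudocount of 0.1, -0.013 under median ratio scaling, -0.068 after quantile normalization and -0.088 with array weights. Jag1, NBN late against early, was 0.001 with a pseudocount of 5. Under median ratio scaling Hes5, NSC mid against early, was -0.091, Hes6, NSC late against mid, -0.094 and Mfng, BP late against mid, -0.086. After quantile normalization Hes5, BP late against mid, was -0.090, Notch3, NBN late against early, -0.094 and Hes1, NBN late against early, -0.085. Mfng, BP late against mid, was -0.007 with array weights, which gave NSC E10.5 replicate 2 a weight of 0 and so dropped it and gave NSC E17.5 replicate 3 a weight of 62.3, and -0.192 with a middle window of E12.5 to E16.5. Notch2, NBN against BP, was -0.328 up to E16.5. Dll3, BP against NSC, was -0.615 from E17.5, -0.186 without E12.5 and -0.037 without E15.5 and E16.5. Without E15.5, Hes6, NSC late against mid, was -0.204, Hes6, BP-NSC difference late against mid, 0.154, and Dll1, NSC mid against early, 0.099.

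With 1 library left out, Dll3, BP against NSC, ran from -0.003 to 0.050, Hes6, NSC late against mid, from -0.030 to 0.059, Hes6, BP-NSC difference late against mid, from -0.088 to 0.001, and, in NBN late against early, Hes1 from -0.035 to 0.187, Jag1 from -0.044 to 0.061, Notch1 from -0.124 to 0.071 and Notch3 from -0.011 to 0.181. TPM keep no depth, so the precision of low levels, such as Hes1 in BP, is unknown.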
